A study of Saccharomyces cerevisiae with 28 samples.

Results

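The 10 genes described here encode the Snf1 protein kinase complex of budding yeast (Saccharomyces cerevisiae), the kinases that switch it on and the phosphatase that switches it off. The set was fixed by systematic name, with earlier results of these data known, and every member is described whatever its values. Its members are SNF1, SNF4, SIP1, SIP2, GAL83, SAK1, TOS3, ELM1, REG1 and GLC7, 10 of the 6692 genes in each file. All 10 were found, had a value above 0 in every library and passed the filter of a mean of at least 1 FPKM. None of the 10 overlaps another gene in the files.

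The series sequenced RNA from 28 yeast samples, of which 10 steady-state libraries are described here. Of these, 9 come from strain YL388, with 1 library each at 0.4, 0.2, 0.15, 0.1, 0.075, 0.05, 0.025, 0.02 and 0.0125% glucose, and the last from strain YL390 at 0.2%. Cells were pregrown on 0.2% glucose in synthetic minimal medium and kept for 2 h at the concentration named. Not analysed here were 18 samples of transient stress experiments. The labels name the strains by number and give no genotype, so what YL388 and YL390 share, and how they differ, is not known from the sources used here.

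Snf1 is the yeast member of the AMP-activated protein kinase family and is needed for growth on carbon sources other than glucose. The enzyme is a trimer of the catalytic subunit Snf1, the gamma subunit Snf4 and 1 of the beta subunits Sip1, Sip2 or Gal83, which place the complex in different parts of the cell. When glucose runs low the upstream kinases Sak1, Tos3 and Elm1 keep the activation loop of Snf1 phosphorylated. When glucose is plentiful the phosphatase Glc7, brought to Snf1 by Reg1, removes that phosphate. Activity is thus known to be set mainly on the protein, whereas the values here are transcript levels.

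Levels are in FPKM, fragments scaled to the length of the gene and to the mapped fragments of the library, as the authors deposited them. Fitted changes are differences on the log2(FPKM + 1) scale between 0.0125 and 0.4% glucose, from a straight line on log2 glucose over the 9 YL388 libraries. No concentration was replicated, so the standard error (SE) rests on how far single libraries scatter about the fitted line. In limma the scatter of a gene is drawn towards that of genes of similar level. For the ratios between genes it is taken as it stands. Whether the libraries came from separate experiments is not given, and their scatter may be technical. The confidence bounds in the files implied about 5920000 to 9210000 fragments per library, and the median over all genes was 43.4 to 49.1 FPKM. The lowest of these medians was that of the YL388 library at 0.2% and the highest that of the YL388 library at 0.0125%. The library at 0.2% held the lowest value for 6 of the 10 genes, and for 21.0% of the 5921 genes above 0 in all 9 libraries. The library at 0.0125% held the highest value for 5 of the 10 and for 37.7% of those genes.

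As glucose fell 32-fold, 3 of the 10 transcripts rose, 0 fell and 7 were not called (limma, adjusted p under 0.05). SIP2, a beta subunit, rose by 0.63 ± 0.10 on the log2 scale (SE, n = 9 libraries; limma adjusted p = 0.00107). SNF1 rose by 0.35 ± 0.07 (limma adjusted p = 0.00431) and REG1 by 0.24 ± 0.06 (limma adjusted p = 0.0128). At an unadjusted p under 0.05 the count was 4 of 10, with GAL83 the addition. The share of all genes at an unadjusted p is not given, here or below, so such counts have no background beside them. Over all 6121 genes tested 47.3% were called at the adjusted p, 31.6% upward and 15.7% downward. The count of 3 risers among 10 at that threshold is near the background. The median absolute change of the members was 0.16, beside 0.32 over all genes. Their median signed change was also 0.16, beside 0.12 over all genes.

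That median over all genes is not 0 in the deposited values, and the split of calls depends on how libraries are scaled. Whether the median differs from 0 through scaling or through the response of the cells was not tested. As deposited 1937 genes rose and 958 fell. After median-of-ratios scaling 45.8% of the genes were called, 23.0% upward and 22.9% downward, and 2 of the 10 members rose. After quantile normalization 48.2% were called, 19.8% upward and 28.4% downward, and of the members 2 rose and 1 fell. SIP2 rose under both scalings, by 0.51 ± 0.09 (limma adjusted p = 0.00161) and by 0.49 ± 0.09 (limma adjusted p = 0.00211). SNF1 did too, by 0.23 ± 0.07 (limma adjusted p = 0.0313) and by 0.21 ± 0.07 (limma adjusted p = 0.0436). REG1 did not pass under either, with changes of 0.12 ± 0.06 (limma adjusted p = 0.135) and 0.09 ± 0.06 (limma adjusted p = 0.204). The upstream kinase gene SAK1 fell by 0.27 under quantile normalization alone (limma adjusted p = 0.0306).

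**Figure D1:**
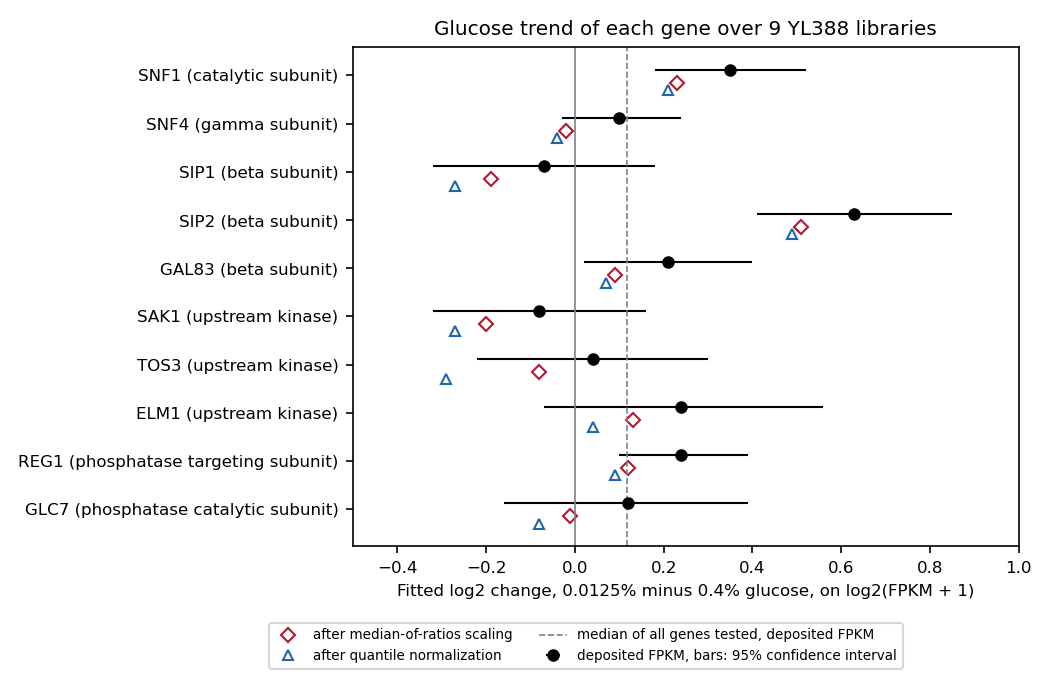
Fitted log2 change from 0.4 to 0.0125% glucose (x axis) of the 10 genes (y axis) over the 9 YL388 libraries, as black points with 95% confidence intervals for the deposited FPKM, red diamonds after median-of-ratios scaling and blue triangles after quantile normalization. SIP2 lies farthest to the right at 0.63, the dashed line marks the median of all genes at 0.12, and both scalings move every gene to the left.

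SNF1 encodes the catalytic subunit (YDR477W, sacCer3 chromosome IV, 1412373 to 1414274, plus strand, 1 coding exon). Its level in YL388 was 48.3, 49.2, 44.6, 51.1, 50.5, 54.5, 57.3, 57.2 and 58.8 FPKM from 0.4 down to 0.0125% glucose. The 4 libraries at 0.05% and below held the 4 highest values, and the fitted change corresponds to a 1.28-fold higher level at the lowest concentration. The rise was a small one, and its square term was not called (0.009 ± 0.010, limma adjusted p = 0.555). With single libraries that term cannot tell a gradual rise from a step.

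SNF4 encodes the gamma subunit, which binds adenine nucleotides and relieves the autoinhibition of Snf1 (YGL115W, chromosome VII, 292033 to 293001, plus strand). Its 9 values were 133.9, 138.6, 134.4, 143.3, 148.6, 144.4, 145.8, 147.9 and 139.9 FPKM in the same order. SNF4 had the narrowest range of the 10 genes, with its highest library 1.11 times its lowest. Its fitted change of 0.10 was not called, and the 95% confidence interval ran from -0.03 to 0.24 (limma adjusted p = 0.189). The ratio of SNF4 to SNF1 was 2.77 at 0.4% and 2.38 at 0.0125%, so per length the gamma subunit transcript stayed above that of the catalytic subunit in every library. The log2 ratio fell by 0.25 ± 0.08 over the glucose range (exact permutation test over the 9 libraries, 2-sided, adjusted p = 0.0393 over 8 ratios), but 6 of the 9 tests with 1 library left out did not pass. It passed only without the library at 0.4, 0.15 or 0.075%, and the adjusted p of these exact tests ran from 0.0118 to 0.154.

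**Figure D2:**
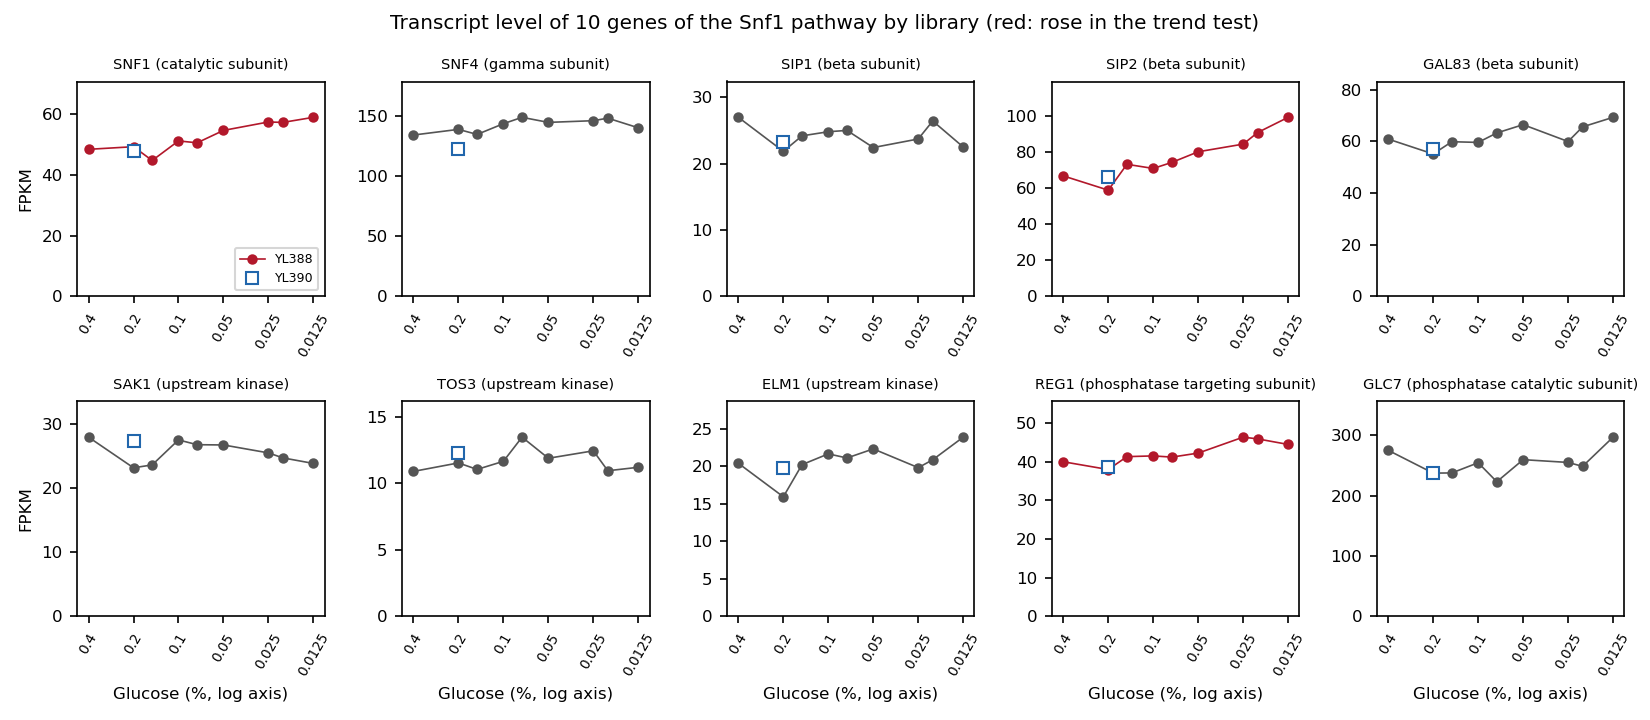
FPKM (y axis, from 0) against glucose in percent (x axis, log scale, falling to the right) for each of the 10 genes, with filled circles for the 9 YL388 libraries and an open square for the YL390 library at 0.2%. The genes in red passed the trend test: SIP2 climbs from 66.9 to 99.4 FPKM, SNF1 from 48.3 to 58.8 FPKM and REG1 from 40.03 to 44.5 FPKM. The other genes were not called.

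The beta subunit genes, which share a role, differed in their trends: SIP2 rose, and GAL83 and SIP1 were not called. SIP2 (YGL208W, chromosome VII, 97338 to 98585, plus strand) and GAL83 (YER027C, chromosome V, 208979 to 210232, minus strand) are paralogs kept from the ancient duplication of the yeast genome. The paralogous repressor genes MIG2 and MIG3 lie directly upstream of them, MIG2 of SIP2 with 331 bases between and MIG3 of GAL83 with 459 bases between. The coding sequences of SIP2 and GAL83 share no identical run longer than 17 bases. Sip2 and Gal83 differ in place when glucose is limiting: Gal83 is known to direct the kinase to the nucleus, whereas Sip2 complexes stay in the cytoplasm and Sip1 complexes go to the vacuole membrane.

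The stretch from 300 to 101 bases before each start codon is shown for this pair, read 5′ to 3′ on the strand of the gene from the R64 genome (the assembly behind sacCer3), since the paralogs moved differently. Capitals mark the searched letters: AGGGG (the stress element bound by Msn2 and Msn4), GCGGGG and GTGGGG (Mig1-like cores) and CCAAT (the element of the Hap complex), each on both strands. The SIP2 stretch is chrVII:97038-97237 and the GAL83 stretch is chrV:210333-210532.
SIP2: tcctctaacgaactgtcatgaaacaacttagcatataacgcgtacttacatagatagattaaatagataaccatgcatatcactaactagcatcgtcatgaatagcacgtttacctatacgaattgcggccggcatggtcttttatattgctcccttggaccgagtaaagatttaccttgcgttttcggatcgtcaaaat
GAL83: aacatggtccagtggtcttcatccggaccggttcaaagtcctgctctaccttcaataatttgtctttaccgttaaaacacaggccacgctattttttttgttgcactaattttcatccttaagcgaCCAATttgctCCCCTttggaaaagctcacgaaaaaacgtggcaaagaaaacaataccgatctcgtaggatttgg
The SIP2 stretch holds none of the 4 strings. The GAL83 stretch holds CCAAT from 174 to 170 bases and AGGGG, on the other strand, from 164 to 160 bases before the start codon. Over 6001 protein-coding genes, 30.7% of stretches of this length hold CCAAT, 16.3% hold AGGGG, 2.50% hold GCGGGG and 3.55% hold GTGGGG. Among the 10 genes, 3 hold CCAAT (GAL83, TOS3 and REG1), 2 hold AGGGG (GAL83 and GLC7) and 0 hold either Mig1-like core. No motif match overlapped another, and nothing about binding follows from these letters.

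SIP2 stood at 66.9, 59.0, 73.3, 71.0, 74.4, 80.3, 84.5, 90.9 and 99.4 FPKM from 0.4 down to 0.0125% glucose. Every library at 0.05% and below was above every library at higher glucose. The highest value was 1.69 times the lowest, a ratio reached by 27.5% of the 5921 genes above 0 in all libraries. Leaving out any single library kept the call, with changes from 0.55 to 0.76 (limma adjusted p = 0.00685 at most). A line on the glucose percentage itself did not: the change was then 0.51 ± 0.17 (limma adjusted p = 0.118), and the calls of SNF1 and REG1 and of every other gene tested were lost with it.

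GAL83 lay at 60.9, 55.1, 59.9, 59.6, 63.3, 66.5, 59.9, 65.6 and 69.3 FPKM in the same order. Its low-glucose and high-glucose libraries overlapped. The fitted change of 0.21 ± 0.08 (SE, n = 9) was not called (limma adjusted p = 0.0674), although it passed without the library at 0.4% (limma adjusted p = 0.0381) or that at 0.025% (limma adjusted p = 0.0328). SIP1 (YDR422C, chromosome IV, 1315326 to 1317773, minus strand) was the lowest of the beta subunits. Its values were 27.0, 21.8, 24.2, 24.8, 24.99, 22.4, 23.7, 26.4 and 22.5 FPKM, with no order along glucose, and its change of -0.07 had a 95% confidence interval from -0.32 to 0.18 (limma adjusted p = 0.641).

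The trends of the subunits were compared directly through their ratios, which do not depend on the scaling of a library. The SIP2 to GAL83 ratio went from 1.10 at 0.4% to 1.43 at 0.0125%, a log2 change of 0.43 ± 0.07 (SE, n = 9; exact permutation test, adjusted p = 0.00377). SIP2 was above GAL83 in all 9 libraries. The SIP1 to SIP2 ratio went from 0.403 to 0.226, a log2 change of -0.71 ± 0.11 (exact permutation test, adjusted p = 0.00273). Both calls held in all 9 exact tests that left out 1 library, with an adjusted p of 0.0192 at most. The SIP1 to GAL83 ratio changed by -0.28 ± 0.12 and was not called (exact permutation test, adjusted p = 0.0864). SIP2 thus changed more than either of the other beta subunits, beyond the scatter between libraries.

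In shares of the summed beta subunit FPKM, SIP2 made up 43.2% at 0.4% glucose, 45.7% at 0.1%, 47.5% at 0.05% and 52.0% at 0.0125%. GAL83 went from 39.4 to 36.3% and SIP1 from 17.4 to 11.8% between the same ends. The SIP2 share was 8.75 percentage points higher at the lowest than at the highest concentration, with a 95% interval of 4.65 to 12.9 that covers counting error only. The sum of the beta subunits went from 154.7 to 191.2 FPKM. It was 3.20 times the level of SNF1 at 0.4% and 3.25 times at 0.0125%. Between these ends it ran from 2.76 times at 0.2% to 3.52 times at 0.15%, and its trend was not tested.

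**Figure D3:**
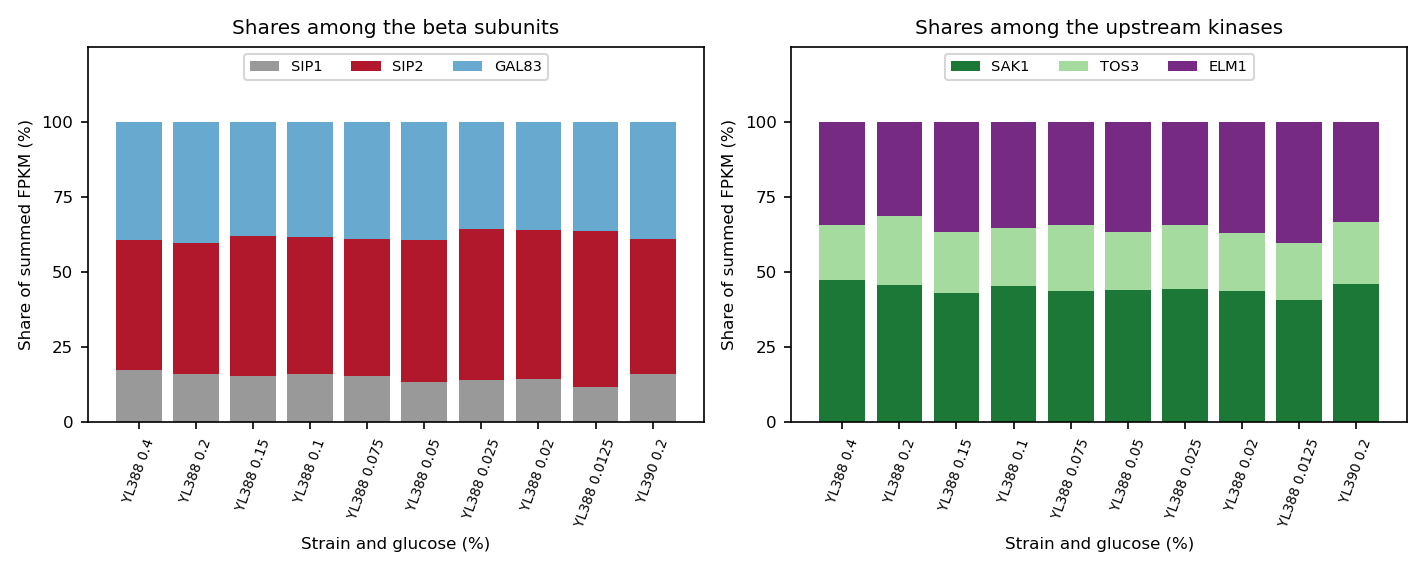
Share of the summed FPKM in percent (y axis) of the beta subunit genes (left) and of the upstream kinase genes (right) in each of the 10 libraries (x axis, strain and glucose in percent). The red SIP2 block widens from 43.2% at 0.4% glucose to 52.0% at 0.0125%, and the ELM1 block is widest at 0.0125%, where it equals SAK1 at 40.5%.

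The upstream kinase genes were among the lowest of the set. As deposited 0 of 3 passed the trend test, beside 47.3% of all genes, and 3 genes are too few to set against that share. SAK1, whose product is the main activator of Snf1 (YER129W, chromosome V, 417281 to 420709, plus strand), was at 28.0, 23.2, 23.7, 27.6, 26.8, 26.8, 25.5, 24.8 and 23.9 FPKM from 0.4 down to 0.0125%. Its fitted change was -0.08, with a 95% confidence interval from -0.32 to 0.16 (limma adjusted p = 0.581). Its values did not rise at any step from 0.1% (27.6 FPKM) down to 0.0125% (23.9 FPKM). The libraries at 0.2 and 0.15%, at 23.2 and 23.7 FPKM, broke that order. SAK1 was called lower under quantile normalization alone, as given above.

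TOS3 (YGL179C, chromosome VII, 163409 to 165091, minus strand) had the lowest level of the 10 genes, at 10.9, 11.5, 11.1, 11.7, 13.5, 11.9, 12.5, 10.96 and 11.2 FPKM. Its change of 0.04 had an interval from -0.22 to 0.30 (limma adjusted p = 0.814). TOS3 was also the least precisely measured gene. The bounds in the files implied roughly 103 to 157 fragments per YL388 library and a median counting error of 8.92%, beside 2.66 to 5.93% for the other members. Its spread over the 9 libraries, an SD of 7.19% of the mean, was no larger than that counting error.

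ELM1, whose product also acts at the bud neck in cell division (YKL048C, chromosome XI, 347214 to 349136, minus strand), was at 20.4, 15.9, 20.2, 21.7, 21.1, 22.3, 19.8, 20.9 and 23.9 FPKM. It scattered most around its line of the 10 genes, with a residual SD of 0.139 on the log2 scale, and the library at 0.2% was the low one. Its change of 0.24 was not called, with an interval from -0.07 to 0.56 (limma adjusted p = 0.186). SAK1 was above ELM1 in every library but that at 0.0125%, where both stood at 23.9 FPKM. The SAK1 to ELM1 ratio went from 1.37 to 1.00, a log2 change of -0.34 ± 0.12 (exact permutation test, adjusted p = 0.0488). This call lies at the threshold: it was lost in 7 of the 9 exact tests without 1 library, passing only without that at 0.15 or 0.025%, and the adjusted p of the 9 ran from 0.0256 to 0.238. The ratios of SAK1 to TOS3 (log2 change -0.12 ± 0.13) and of TOS3 to ELM1 (-0.22 ± 0.20) were not called (exact permutation tests, adjusted p = 0.377 for both).

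Of the phosphatase genes REG1 was called as deposited and GLC7 was not, and the difference between their trends was not called. REG1 (YDR028C, chromosome IV, 497835 to 500879, minus strand) stood at 40.03, 38.0, 41.4, 41.5, 41.2, 42.3, 46.4, 46.0 and 44.5 FPKM from 0.4 down to 0.0125% glucose. The 3 libraries at 0.025% and below were above the others. The call held without any 1 library (limma adjusted p = 0.0417 at most) but not under the other scalings, as given above.

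GLC7, the essential and only catalytic subunit of type 1 protein phosphatase in yeast (YER133W, chromosome V, 432495 to 433958, plus strand), was the most abundant transcript of the set. It has 2 coding exons around an intron of 525 bases. Its values were 275.0, 237.2, 237.5, 254.4, 222.9, 259.5, 254.9, 248.4 and 296.8 FPKM in the same order. The highest values were at both ends of the glucose range and the lowest at 0.075%. The line gave a change of 0.12, with an interval from -0.16 to 0.39 (limma adjusted p = 0.473). The square term, 0.037 ± 0.012, was not called after adjustment (limma adjusted p = 0.0727, unadjusted p = 0.0142), and no other member had a square term with an unadjusted p under 0.05. In all 0 of 10 members had a called square term in limma, beside 16.1% of all genes. GLC7 was 6.87 times REG1 at 0.4% and 6.67 times at 0.0125%. In the libraries between, it was lower, from 5.4 times at 0.02% to 6.24 times at 0.2%. The trend of their ratio was not called (log2 change of REG1 to GLC7 0.13 ± 0.14, exact permutation test, adjusted p = 0.377).

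The levels, all per length, ordered the 10 genes over the 9 YL388 libraries. The median was 254.4 FPKM for GLC7, 143.3 for SNF4, 74.4 for SIP2, 60.9 for GAL83 and 51.1 for SNF1. It was 41.5 for REG1, 25.5 for SAK1, 24.2 for SIP1, 20.9 for ELM1 and 11.5 for TOS3. GLC7 and SNF4, SNF4 and SIP2, REG1 and SAK1, and ELM1 and TOS3 had ranges that did not overlap. SAK1 and SIP1 were the closest neighbours, with SAK1 higher in 7 of the 9 libraries by a median of 1.06 times. By the centre of the confidence bounds SAK1 was higher in 8 of the 9. Their ranges overlapped, and whether these levels differ was not tested. The ranges of SIP2 and GAL83, of GAL83 and SNF1, of SNF1 and REG1, and of SIP1 and ELM1 also overlapped, although the first of each pair was the higher one in at least 8 of the 9 libraries. The FPKM of SNF4, SIP2, GAL83 and GLC7 lay above its own upper confidence bound in all 10 libraries, by a median of 1.12 to 1.19 times the centre of the bounds. The order was the same by those centres.

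YL390 could be set beside YL388 at 0.2% glucose, with 1 library a strain and therefore no test, and its levels of these genes were near those of YL388. The difference, YL390 minus YL388, ran from -0.18 for SNF4 to 0.30 for ELM1 on the log2 scale. No member reached 2-fold, beside 2.96% of the 6072 genes compared. SIP2 was at 66.3 FPKM in YL390 and 59.0 in YL388, and its share of the beta subunits was 45.2 and 43.4%. ELM1 was at 19.8 FPKM in YL390 and 15.9 in YL388, where the YL388 library is the lowest of the 9.

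The YL390 library was also set against the whole glucose curve of YL388, in a model of the 10 libraries which assumes that it varies as they do. In limma 0 of 10 members were called, beside 3.66% of all genes, and 1 had an unadjusted p under 0.05. That gene was SNF4, at 122.2 FPKM in YL390 and between 133.9 and 148.6 FPKM in the YL388 libraries. Its distance from the curve was -0.18 ± 0.05 (limma adjusted p = 0.138, unadjusted p = 0.00813). The other members lay within the range of their YL388 values and between -0.07 and 0.08 from the curve.

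The genes whose profiles were most like those of the 3 risers were found by Pearson correlation of log2(FPKM + 1) over the 9 YL388 libraries among 4903 genes over 300 bases long that overlap no other gene. These points share their libraries and the overall drift with glucose, so the values only describe likeness. For SIP2 they were TPS3 (r = 0.989), PLB1 (r = 0.988) and PIR3 (r = 0.987). For SNF1 they were PPM1 (r = 0.993), GSF2 (r = 0.977) and BNA3 (r = 0.970). For REG1 they were EDE1 (r = 0.986), MRP13 (r = 0.965) and TOM40 (r = 0.964). SIP2 had 86 genes with r over 0.95, SNF1 27 and REG1 11.

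The pathway around the complex was described with 5 gene lists, also chosen with earlier results of these data known. Of the genes for other partners and regulators of Glc7, 10 of 17 rose and 1 fell, the remaining 6 missing the threshold, beside 31.6 and 15.7% of all genes. The median change of the list was 0.52, beside 0.12 over all genes. GIP2, a Glc7 partner linked to glycogen, stood at 10.2 FPKM at the highest and 29.6 FPKM at the lowest concentration and rose by 1.52 ± 0.14 on the log2 scale (limma adjusted p = 0.00016). REG2, a relative of REG1 that also targets Glc7, rose from 5.46 to 13.5 FPKM (1.38 ± 0.18, limma adjusted p = 0.000488), and its YL388 values at 0.1% and below were all above those at higher glucose. The Glc7 partner gene GIP3 fell from 28.5 to 15.9 FPKM (-0.70 ± 0.11, limma adjusted p = 0.00105). REG2 and GIP3 overlap another gene, as do SCD5 and GIP4 of the same list. Since counting by strand is not stated, reads of such pairs cannot be told apart.

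The rest of that list is given whole, without a theme. FIN1, SCD5, SDS22, GAC1, GLC8, YPI1, PIG1 and PIG2 rose, by 0.51 to 0.80 on the log2 scale (limma adjusted p = 0.00593 at most). BUD14, REF2, BNI4, SHP1, GIP4 and GIP1 were not called, with changes from -0.19 to 0.33. With quantile normalization 8 of the 17 rose and 3 fell, beside 19.8 and 28.4% of all genes, PIG1 and PIG2 were no longer called, and BUD14 and REF2 were called lower.

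Of 10 other regulators of Snf1, 4 rose, 1 fell and 5 were not called, which is near the 31.6 and 15.7% of all genes, and the median change was 0.20. BMH2, a 14-3-3 protein, rose from 333.1 to 495.6 FPKM (0.53 ± 0.07, limma adjusted p = 0.000396). MTH1, a glucose-signalling gene, went from 67.02 to 102.1 FPKM and rose by 0.86 ± 0.14 (limma adjusted p = 0.00126). Its paralog STD1, whose product binds Snf1, went from 29.6 to 14.96 FPKM and fell by 1.18 ± 0.14 on the log2 scale (limma adjusted p = 0.00033). The genes of the other Snf1 phosphatases SIT4 and PTC1 were not called, at 185.6 and 182.0 FPKM and at 53.7 and 58.1 FPKM at the ends of the range. With quantile normalization 2 of the list rose and 2 fell, again near the 19.8 and 28.4% of all genes.

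Of 11 genes for substrates of Snf1, 4 rose, 1 fell and 6 were not called, also near the 31.6 and 15.7% of all genes, and the median change was 0.19. With either scaling 2 rose and 2 fell, near the 23.0 and 22.9% of all genes after median-of-ratios scaling and the 19.8 and 28.4% after quantile normalization. CAT8, an activator of gluconeogenic genes, rose from 5.34 to 14.96 FPKM (1.54 ± 0.14, limma adjusted p = 0.000149), and RDS2, a further activator of such genes, from 35.5 to 49.3 FPKM (limma adjusted p = 0.00668). GPD2, a glycerol-3-phosphate dehydrogenase, fell from 186.6 to 133.1 FPKM (limma adjusted p = 0.000641). Of 7 other kinases related to Snf1, KIN1 rose from 30.6 to 34.5 FPKM as deposited but not under either scaling, and KIN2 fell from 26.7 to 16.5 FPKM (limma adjusted p = 0.0267). KIN4 was not called as deposited, at 30.0 and 26.6 FPKM, but fell under both scalings. The median change of these kinases was -0.17. As deposited 1 of the 7 rose and 1 fell, beside 31.6 and 15.7% of all genes, and 7 genes are too few to set against those shares. After median-of-ratios scaling 0 rose and 2 fell, beside 23.0 and 22.9% of all genes. With quantile normalization 0 rose and 4 fell, beside 19.8 and 28.4% of all genes, whose median change was then -0.08.

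All 12 genes whose release from glucose repression needs Snf1 rose, also under both scalings, with a median log2 change of 2.75. Over all genes 31.6% rose as deposited, 23.0% after median-of-ratios scaling and 19.8% after quantile normalization. The list is defined by release from glucose repression, so its count is a description and not a separate result. HXK1, a hexokinase gene that overlaps another gene, rose from 338.5 to 1791 FPKM (2.70 ± 0.15, limma adjusted p = 4.5e-05). JEN1, the lactate transporter gene, rose from 8.47 to 220.7 FPKM (4.45 ± 0.57, limma adjusted p = 0.000461). SUC2, the invertase gene, rose from 54.8 to 554.5 FPKM (3.66 ± 0.50, limma adjusted p = 0.000585). The steepest of the 10 genes of the complex and its regulators, SIP2 at 0.63, lay below the smallest change in that list, 1.18 for the isocitrate lyase gene ICL1.

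**Figure D4:**
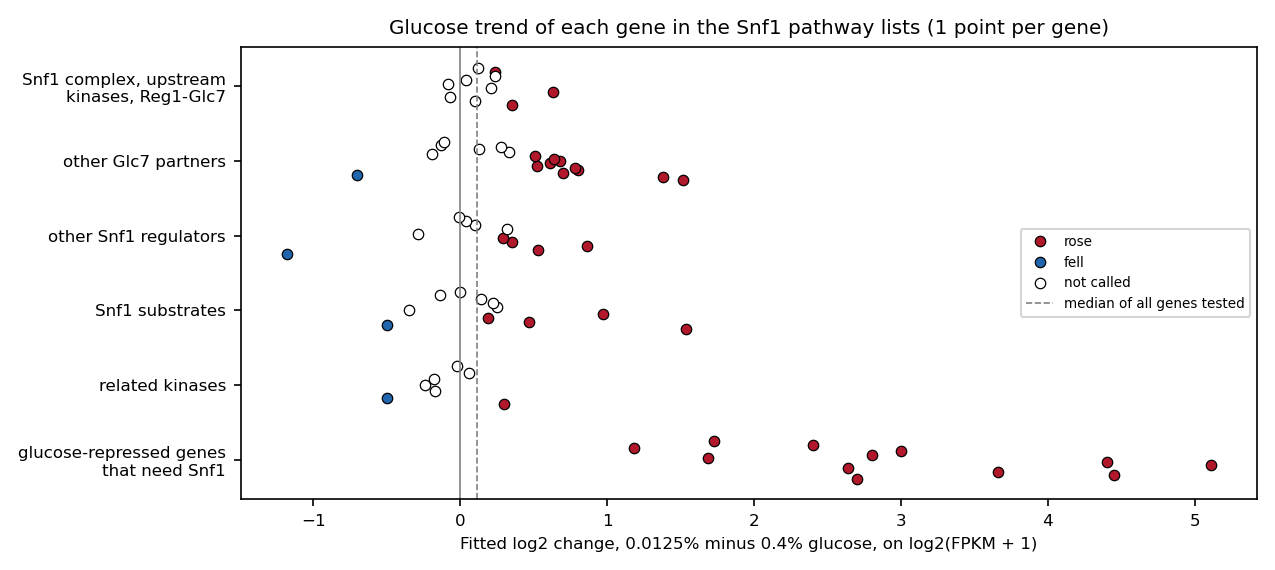
Fitted log2 change from 0.4 to 0.0125% glucose (x axis) for each gene (1 point) of the 10 genes and of the 5 pathway lists (y axis), in red where it rose, blue where it fell and white where it was not called as deposited. The 10 genes lie between -0.08 and 0.63, whereas the 12 Snf1-dependent genes lie between 1.18 and 5.11, and the dashed line marks the median of all genes at 0.12.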

How the data were processed

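The deposited files hold FPKM of each gene between a lower and an upper confidence bound, which the authors made with Cufflinks, per the file headers. TopHat, DESeq2 and the build sacCer3 also appear in the submitters' processing notes, with no version or role. No source used here states the annotation or whether strand was counted. Of 6692 genes, 6008 matched the RefSeq R64 annotation by systematic name, and all 10 members had identical coordinates there. Starts in the files count from 0 and are given from 1.

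Genes averaging 1 FPKM or more were fitted with limma 3.58.1 (R 4.3.3) on log2(FPKM + 1), with an intensity trend and Benjamini-Hochberg adjustment over all genes kept (threshold 0.05). The trend and curve fits used the 9 YL388 libraries, and the strain fit all 10. The 8 ratios were tested by exact 2-sided permutation over all 362880 orderings. Scripts were tested on simulated data. Fragments were read from the bounds as 2 Poisson SDs on each side, an approximate reading that covers counting error only.

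Members and lists were chosen with earlier results of these data known. Named from each list were the 3 genes with the smallest adjusted p among those above 0 FPKM in every library. Alternatives were other pseudocounts, filters, scalings, the bound centre, glucose in percent, no intensity trend and leaving out each library.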

Additional observations from a re-analysis of the deposited data

How the results depend on the processing

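Of 170 refits of single trends, 162 kept their side of the threshold, and the curvature and strain results of the members kept theirs in all 160 refits each. With a line on the glucose percentage itself, 0 of 10 members and 0 of 6121 genes passed in limma (3 members at an unadjusted p under 0.05), against 3 members on the log scale, and 2 of the 8 ratios passed against 4. The trend of SIP2 then had an adjusted p of 0.118, that of SNF1 0.143 and that of REG1 0.153 in limma. Without 1 library at a time, 3 to 4 members were called, and 2 to 4 ratios. The share of all genes called in each of those fits is not given here. The ratios SIP1 to SIP2 and SIP2 to GAL83 passed in every such test and in the other 3 alternatives, with changes of -0.79 to -0.60 and of 0.36 to 0.48. By the centre of the confidence bounds, 3 ratios passed, without SAK1 to ELM1 (exact adjusted p = 0.0515), and the gain of the SIP2 share was 8.64 percentage points. Depth limits TOS3, whose spread of 7.19% lay within its counting error of 8.92%, while the spread of the other 9 members was above theirs, least so for SNF4 (3.85 against 3.73%). No paired analysis was possible because each concentration had 1 library and the numbered replicates belong to samples not analysed here.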
